A study of Homo sapiens with 30 samples.

Results

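This report describes 40 human genes of G2 and mitosis, MKI67 among them, out of 27630 genes counted in 8 RNA libraries. The members were listed by their function in cell division, and each symbol was looked up in the count tables. MKI67 was put on the list because it was called higher at the native nuclear lamina than in each of the 2 fractions, as 0.0424% of all genes tested were, so its native lamina values are given as a description, with no test. All 40 symbols were found and all 40 passed the filter on low counts, which kept 16504 genes.

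The RNA came from asynchronous HEK293FT cells, a line derived from human embryonic kidney, that had been transfected with a construct joining APEX2 to lamin B1. APEX2 is an engineered peroxidase that tags molecules in its neighbourhood with biotin, and lamin B1 is a protein of the lamina that lines the inner nuclear membrane. There were 4 groups of 2 libraries: a nuclear fraction, a cytosolic fraction, RNA recovered after APEX2 labelling without a fixation label (native lamina), and RNA recovered from cells fixed with PFA, the usual short form of paraformaldehyde (PFA lamina). All 4 groups carried the fusion construct, and no library from untransfected or unlabelled cells was analysed here. The labels number the replicates but do not say whether they were separate cultures, so p-values measure only the spread between these libraries, which may be technical.

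Most of the 40 genes are transcribed mainly late in the cell cycle. The kinase CDK1 with its B-type cyclins drives entry into mitosis, the spindle assembly checkpoint holds the cell in metaphase until every chromosome is attached, and CDC20 then activates the anaphase-promoting complex, which marks cyclin B for destruction. MKI67 encodes Ki-67, a widely used marker of cycling cells whose protein coats mitotic chromosomes. In bulk libraries such as these, fewer cells in mitosis and less of an RNA per cell cannot be told apart.

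Total counts ran from 2321291 in PFA replicate 2 to 8557777 in native replicate 1, and the 40 genes took 0.333 to 0.743% of them. The fractions differed in their defining RNAs. The summed level of 6 nuclear-retained RNAs, MALAT1 and NEAT1 among them, was 14100 and 23190 normalised CPM in the nuclear libraries and 1184 and 1535 in the cytosolic ones. Normalised CPM are counts scaled to library size with factors from the trimmed mean of M-values (TMM). At the lamina the same sum was 6650 and 14010 in the native and 948 and 4358 in the PFA libraries, so the PFA replicates lay far apart. Of 8 genes typical of HEK293 cells, 7 or 8 were above 3 counts in each library.

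Members ranged widely in abundance. On the RPKM scale (CPM divided by exonic length in kb), which allows levels of different genes to be compared, the median of the 40 was 20.8 in nuclear, 28.1 in cytosolic, 25.2 in native lamina and 19.7 in PFA lamina libraries. PRC1, which bundles microtubules at the spindle midzone, had the highest level in each group, from 79.0 RPKM at the PFA lamina to 158 RPKM at the native lamina. The lowest was HMMR in the nuclear fraction, at 5.74 RPKM, and CENPE, a kinetochore motor, in the other 3 groups, at 1.89 to 3.16 RPKM. The map of all 40 genes shows each gene's libraries relative to its own mean.

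**Figure D1:**
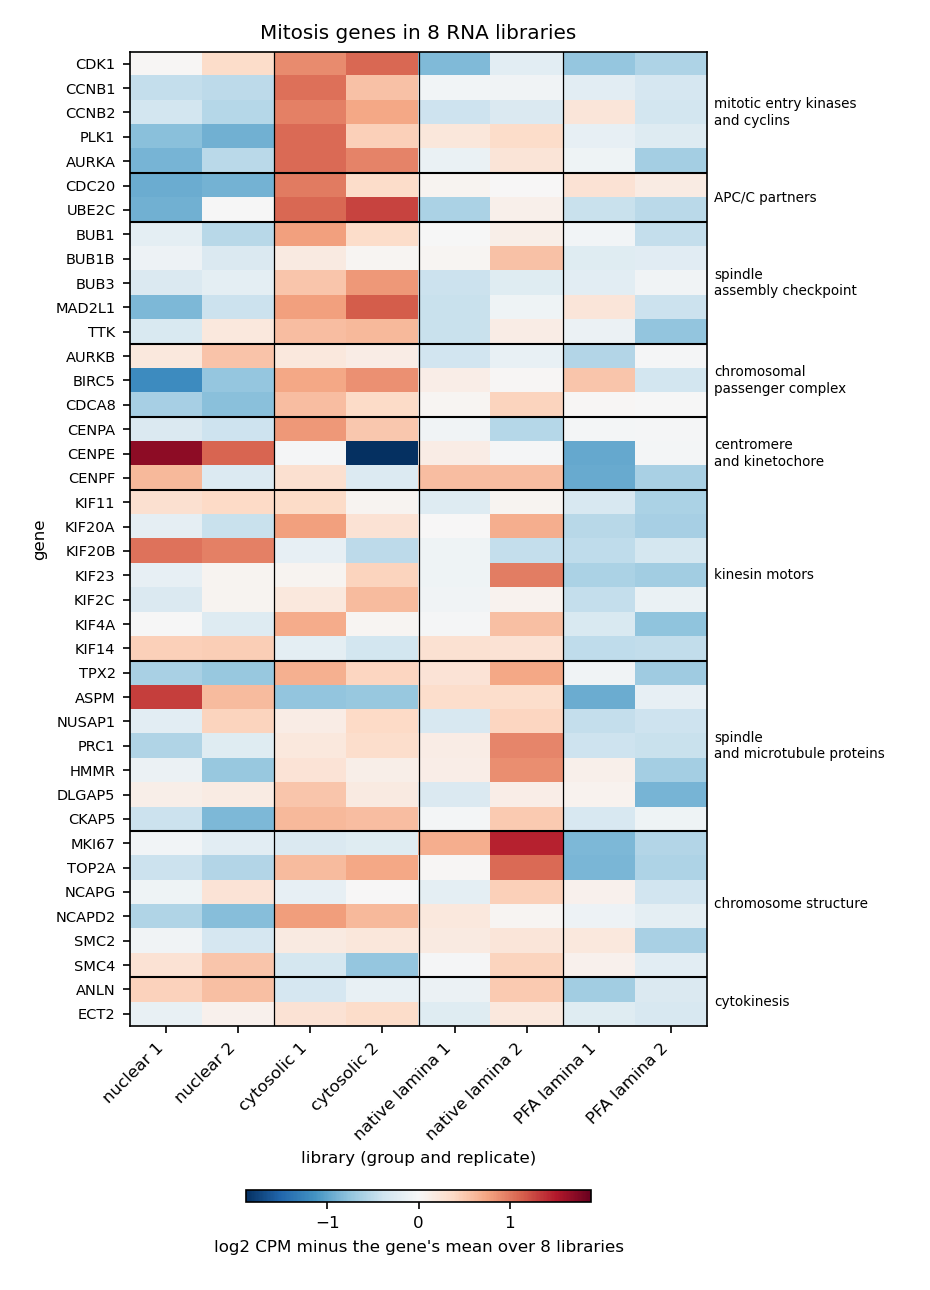
Rows are the 40 genes, grouped by role and separated by lines, and columns are the 8 libraries. Colour gives log2 CPM minus the gene's mean over the 8 libraries. The first 5 rows, mitotic entry genes, are reddest in the cytosolic columns, CENPE, KIF20B and ASPM are reddest in the nuclear columns, and MKI67 is reddest in the native lamina columns.

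Cell cycle promoters often carry 2 short elements, the cell cycle genes homology region and the CCAAT box. The first was searched as TTTGAA or TTTAAA and the second as CCAAT, each on both strands, in the 250 bases upstream of the transcription start in RefSeq (GRCh38.p14). Of the 40 genes, 34 had an entry. TTTGAA or TTTAAA was present in 28 of the 34 (82.4%) against 21.9% of 35116 promoters, and CCAAT in 27 (79.4%) against 32.0%. Both kinds were present in 23 (67.6%) against 7.6%. The 6-letter and 5-letter words can overlap, as they do once in MKI67, and a match is a description of the letters only. The 150 bases upstream of 5 genes are shown, in gene orientation with the matches in capitals, because these genes share the elements while their RNAs lay on different sides of the comparisons described next: MKI67 was high at the native lamina, PLK1, CCNB2 and CDC20 were higher in the cytosolic fraction, and ASPM was higher in the nuclear fraction.
MKI67 (chr10:128126424-128126573, minus strand): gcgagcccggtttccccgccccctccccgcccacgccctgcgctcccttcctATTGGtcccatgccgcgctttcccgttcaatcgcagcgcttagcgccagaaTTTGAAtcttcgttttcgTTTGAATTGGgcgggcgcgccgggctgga
PLK1 (chr16:23678739-23678888, plus strand): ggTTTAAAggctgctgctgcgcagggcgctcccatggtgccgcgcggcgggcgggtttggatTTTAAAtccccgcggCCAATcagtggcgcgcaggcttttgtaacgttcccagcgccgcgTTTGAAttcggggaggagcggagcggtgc
CCNB2 (chr15:59104996-59105145, plus strand): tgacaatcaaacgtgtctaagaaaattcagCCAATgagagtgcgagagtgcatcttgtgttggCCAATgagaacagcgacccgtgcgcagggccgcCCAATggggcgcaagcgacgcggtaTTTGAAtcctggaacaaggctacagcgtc
CDC20 (chr1:43358831-43358980, plus strand): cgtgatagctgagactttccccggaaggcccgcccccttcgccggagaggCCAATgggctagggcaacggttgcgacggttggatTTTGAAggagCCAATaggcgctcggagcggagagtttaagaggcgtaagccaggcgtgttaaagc
ASPM (chr1:197146670-197146819, minus strand): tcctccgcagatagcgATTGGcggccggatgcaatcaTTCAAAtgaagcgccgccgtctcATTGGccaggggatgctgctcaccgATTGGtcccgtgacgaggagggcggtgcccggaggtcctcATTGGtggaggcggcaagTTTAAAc

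The comparison of the fractions shows in which fraction each message made up a larger share of the RNA counted. The amount of RNA per compartment was not used, so absolute amounts in nucleus and cytosol are not compared. Of the 40 genes, 18 were lower in nuclear than in cytosolic RNA and 5 were higher, by edgeR's quasi-likelihood test at a Benjamini-Hochberg adjusted p under 0.05. Over all genes tested, 21.2% were lower and 26.1% higher. The median log2 fold change of the 40 was -0.60, beside 0.13 for all genes tested. The nuclear libraries lay wholly below the cytosolic ones for 27 members (35.4% of all genes) and wholly above them for 7 (42.5%). The rule that put MKI67 on the list did not use this comparison.

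The regulators of mitotic entry and exit were lower in the nuclear fraction as a group. All 5 entry kinases and cyclins fell there, namely CDK1, CCNB1, CCNB2, PLK1 and AURKA, and so did both partners of the anaphase-promoting complex, CDC20 and the ubiquitin-conjugating enzyme UBE2C. PLK1, a kinase of centrosome maturation and mitotic exit, had 42.8 and 39.3 normalised CPM in the nuclear libraries and 157.0 and 101.5 in the cytosolic ones. The groups did not overlap, and the log2 fold change was -1.66 (SE 0.29, edgeR adjusted p 0.00118). AURKA, the kinase of spindle poles, had 23.7 and 30.6 CPM against 92.0 and 84.6, a log2 change of -1.70 (SE 0.30, edgeR adjusted p 0.00126). CDK1 itself changed least of the 7, with -0.80 (SE 0.29, edgeR adjusted p 0.0363), and it was no longer called when any 1 of the 4 fraction libraries was left out. A fit without 1 library leaves its group with 1, which is then assumed to vary like the other groups, so calls lost in this way can keep fold changes of about the same size.

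Among checkpoint genes BUB1, BUB3 and MAD2L1 fell, while BUB1B had a log2 change of -0.29 and TTK one of -0.63 that did not pass the test. Of the chromosomal passenger complex, which corrects faulty attachments, BIRC5 (survivin) and CDCA8 (borealin) fell. BIRC5 had 62.6 and 86.1 CPM in the nuclear libraries and 238.7 and 263.0 in the cytosolic ones, the strongest fall among the 40, with a log2 change of -1.75 (SE 0.33, edgeR adjusted p 0.00157). The kinase of the same complex, AURKB, was not called. It had 87.2 and 110.6 against 87.2 and 83.3 CPM, groups that overlap, with a log2 change of 0.21 (SE 0.28, edgeR adjusted p 0.550).

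The 5 members that were higher in the nuclear fraction were CENPE, ASPM, KIF20B, SMC4 and KIF14. CENPE had 84.2 and 55.8 CPM in the nuclear libraries and 25.5 and 6.98 in the cytosolic ones, with a log2 change of 2.08 (SE 0.48, edgeR adjusted p 0.00432). The cytosolic replicates of CENPE differed from each other by more than those of any other member, and across all settings its log2 fold change lay between 1.43 and 3.30. ASPM, a spindle pole protein, had 203.9 and 123.9 against 48.5 and 49.7 CPM, with a log2 change of 1.74 (SE 0.33, edgeR adjusted p 0.00166). KIF20B, a kinesin of cytokinesis, had 78.9 and 74.9 against 34.5 and 27.3 CPM, with 1.31 (SE 0.28, edgeR adjusted p 0.00279). SMC4, a condensin subunit, had 0.93 and the kinesin KIF14 had 0.72.

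The other roles were split. Of the 7 kinesins KIF20B and KIF14 rose and KIF20A fell, and of the 7 spindle and microtubule proteins ASPM rose and TPX2 and CKAP5 fell. Of the 6 chromosome structure genes SMC4 rose, and TOP2A, which untangles DNA, and the condensin subunit NCAPD2 fell. CENPA, the histone H3 variant of centromeres, fell beside CENPE, which rose. MKI67 had close values that did not overlap, with 292.7 and 262.9 CPM in the nuclear and 249.6 and 258.8 in the cytosolic libraries, and a log2 change of 0.13 (SE 0.32, edgeR adjusted p 0.759). Of the 23 calls, 14 were kept in all 18 alternative settings. The other 9 (CDK1, BUB1, BUB3, CENPA, KIF20A, KIF14, CKAP5, TOP2A and SMC4) were lost without at least 1 library, and CKAP5 was lost without nuclear replicate 2 only.

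The direction in this comparison went with the exonic length of the gene. All 5 members called higher were among the 11 with over 5000 exonic bases, of which 2 (TOP2A and CKAP5) were called lower. Of the 10 members of up to 2500 bases, 8 were lower and 0 higher. Among all genes tested of 5564 bases or more, 27.8% were higher and 11% lower. From 1723 to 2638 bases 25% were higher and 22.8% lower, and up to 1722 bases 26.8% and 30.5%. The limits of 5000 and 2500 bases were chosen with the data known. Over the 40 genes, which share the same libraries, the Spearman correlation between log2 fold change and length was 0.627, and in the 4 pairings of 1 nuclear with 1 cytosolic library it was 0.505 to 0.686. Over all 16504 genes the correlation was 0.066, and it was 0.313 over genes with at least 10 counts in every library. After an offset that removed each library's trend with length over all genes, the correlation over the 40 was 0.528 and 3 members were still called higher. The plot against exonic length shows both ends.

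**Figure D2:**
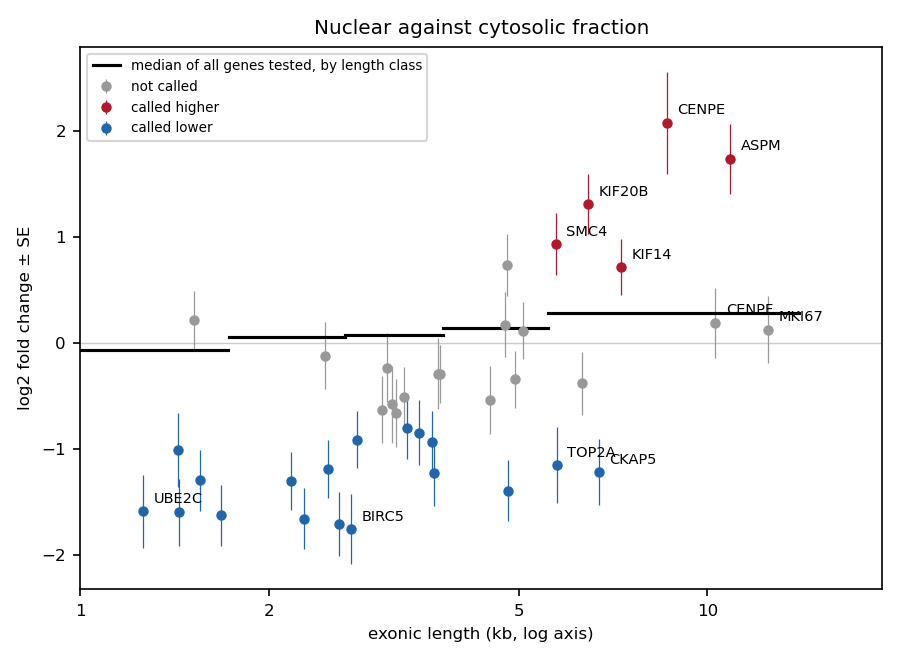
Each point is 1 of the 40 genes, with exonic length in kb on a log axis and the log2 fold change of the nuclear against the cytosolic fraction with its SE. Red points were called higher, blue points lower and grey points neither, and black lines give the median of all genes tested in 5 length classes. The 5 red points lie to the right, above 5 kb, and blue points fill the short end, while the black lines rise only from -0.06 to 0.28.

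Native lamina RNA was set against each fraction to see which messages were recovered near lamin B1 beyond their level there. MKI67 was listed for being called higher at the native lamina, so its high values there were set by the choice and are a description. It had 489.1 and 836.8 normalised CPM at the native lamina, against 249.6 to 292.7 in the 4 fraction libraries and 167.8 and 206.0 at the PFA lamina. Both native libraries therefore lay above, and both PFA libraries below, every fraction library. The log2 fold change of the native lamina was 1.25 (SE 0.32) against the nuclear and 1.38 (SE 0.32) against the cytosolic fraction. Native replicate 2 was 1.71 times replicate 1, and without it the log2 fold changes were 0.83 and 0.94. The PFA libraries gave MKI67 log2 fold changes of -0.57 (SE 0.32, edgeR adjusted p 0.219) against the nuclear fraction. Against the cytosolic fraction they gave -0.44 (SE 0.32, edgeR adjusted p 0.433), and neither passed the test. PFA levels were not compared in choosing MKI67, but they entered its fit through the shared estimate of the spread. Both comparisons also share the fraction libraries used in the choice. With the length offset described above the PFA against nuclear value was -0.15.

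MKI67 is the longest of the 40, with 12495 exonic bases (hg19, chromosome 10, 129894925 to 129924468, minus strand). At its length the trend over all genes was 0.10 in the native against nuclear comparison and 0.63 in the native against cytosolic one, which leaves MKI67 1.16 and 0.75 above the trend. It was the only member with both native libraries above all 4 fraction libraries, a pattern of 7.19% of all genes. Since MKI67 was listed for its native values, this count is a description. When total counts replaced TMM 6 members had the pattern, and the share of all genes under that scaling is not given. That scaling also raised the all-gene median of the native against nuclear comparison.

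TOP2A, like MKI67 a chromosome-associated marker of cycling cells, had 449.9 and 939.6 CPM at the native lamina. That lay above its nuclear values of 333.7 and 302.4 and on both sides of its cytosolic values of 675.3 and 736.3. The log2 fold change was 1.13 against the nuclear fraction (SE 0.36, edgeR adjusted p 0.0671), which did not pass the test, and -0.02 against cytosolic RNA (SE 0.35, edgeR adjusted p 0.973).

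Against the nuclear fraction 3 members were called higher at the native lamina (3.87% of all genes) and 1 lower (3.44%), and 1 of the 3 was MKI67. The median of the 40 was 0.36 beside -0.07 for all genes, and it was 0.17 beside -0.08 without native replicate 2. The native libraries lay wholly above the nuclear ones for 17 members (28.2% of all genes) and wholly below for 7 (35.1%). PLK1, at 86.4 and 94.8 CPM, was above its nuclear libraries and below its cytosolic ones, with a log2 change of 1.14 (SE 0.28, edgeR adjusted p 0.0346). TPX2, which nucleates spindle microtubules, had 209.1 and 289.7 CPM at the native lamina and 113.5 and 105.8 in the nuclear fraction, with 1.19 (SE 0.31, edgeR adjusted p 0.0390). KIF20B, at 36.4 and 28.1 CPM, was lower than in the nuclear fraction, with -1.25 (SE 0.28, edgeR adjusted p 0.0239). PLK1 and KIF20B were lost without any 1 of the nuclear or native libraries, and TPX2 also without either cytosolic library, with edgeR adjusted p up to 0.229 across the alternatives. The number called higher was 11 with total counts and 0 with upper-quartile factors. The shares of all genes called in these settings are not given here.

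Across roles, the native against nuclear fold changes had both signs within the same complexes. BIRC5 had 1.02 and CDCA8 0.94 while AURKB had -0.63. CDC20 had 0.95 and UBE2C 0.18, and CDK1 had -0.68. CENPF, an outer kinetochore protein, had 0.34 and CENPE -1.36, KIF20A had 0.68, ASPM -0.67, BUB1B 0.50 and TTK -0.09. SMC4 had -0.19, and the cytokinesis genes ECT2 and ANLN had 0.03 and -0.28. None of these 15 values passed the test.

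Against the cytosolic fraction 7 members were lower at the native lamina (6.77% of all genes) and 2 higher (6.99%), MKI67 being 1 of the 2. The median of the 40 was -0.28 beside 0.10 for all genes. Single libraries moved it, to -0.11 without native replicate 1, -0.53 without native replicate 2 and -0.16 without cytosolic replicate 1. The native libraries lay wholly below the cytosolic ones for 20 members (28.4% of all genes) and wholly above for 7 (35.8%). With total counts both medians rose, to 0.01 and 0.39, and the number lower was 2. The 7 were CDK1, UBE2C, MAD2L1, CCNB2, BUB3, AURKA and CCNB1, all of which were also lower in the nuclear fraction, a comparison that shares the cytosolic libraries. CDK1 had 42.6 and 66.2 CPM against 141.1 and 162.4 in the cytosolic libraries, with a log2 change of -1.48 (SE 0.29, edgeR adjusted p 0.00978). UBE2C had 28.4 and 46.3 against 91.5 and 105.3 CPM, with -1.40 (SE 0.34, edgeR adjusted p 0.0194), and MAD2L1 had -1.22 (SE 0.31, edgeR adjusted p 0.0236).

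ASPM, at 103.2 and 103.6 CPM, was higher than its cytosolic 48.5 and 49.7, with a log2 change of 1.07 (SE 0.33, edgeR adjusted p 0.0444). It remained below both nuclear libraries, and with the length offset its fold change fell to 0.49 and was not called. That offset took MKI67 to 0.74 and left 0 members higher and 2 lower. All 7 lower calls were lost without cytosolic replicate 1, cytosolic replicate 2 or native replicate 1. Each of the 9 calls was lost without at least 3 single libraries, and the edgeR adjusted p reached 0.273 for CCNB1.

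The spread between the native replicates was not even across genes. Replicate 2 was above replicate 1 in 31 of the 40 members, with a median log2 ratio of 0.37, while over all genes tested the median ratio was -0.02. The ratio of replicate 2 to replicate 1 was largest in TOP2A (2.09) and KIF23 (2.08), a kinesin of the central spindle, followed by PRC1 (1.72) and MKI67. In the other 3 groups replicate 2 was above replicate 1 in 16 to 20 members. The 2 native libraries also differed in summed nuclear-retained RNA (6650 and 14010 CPM), and the part of that difference in these values was not tested.

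**Figure D3:**
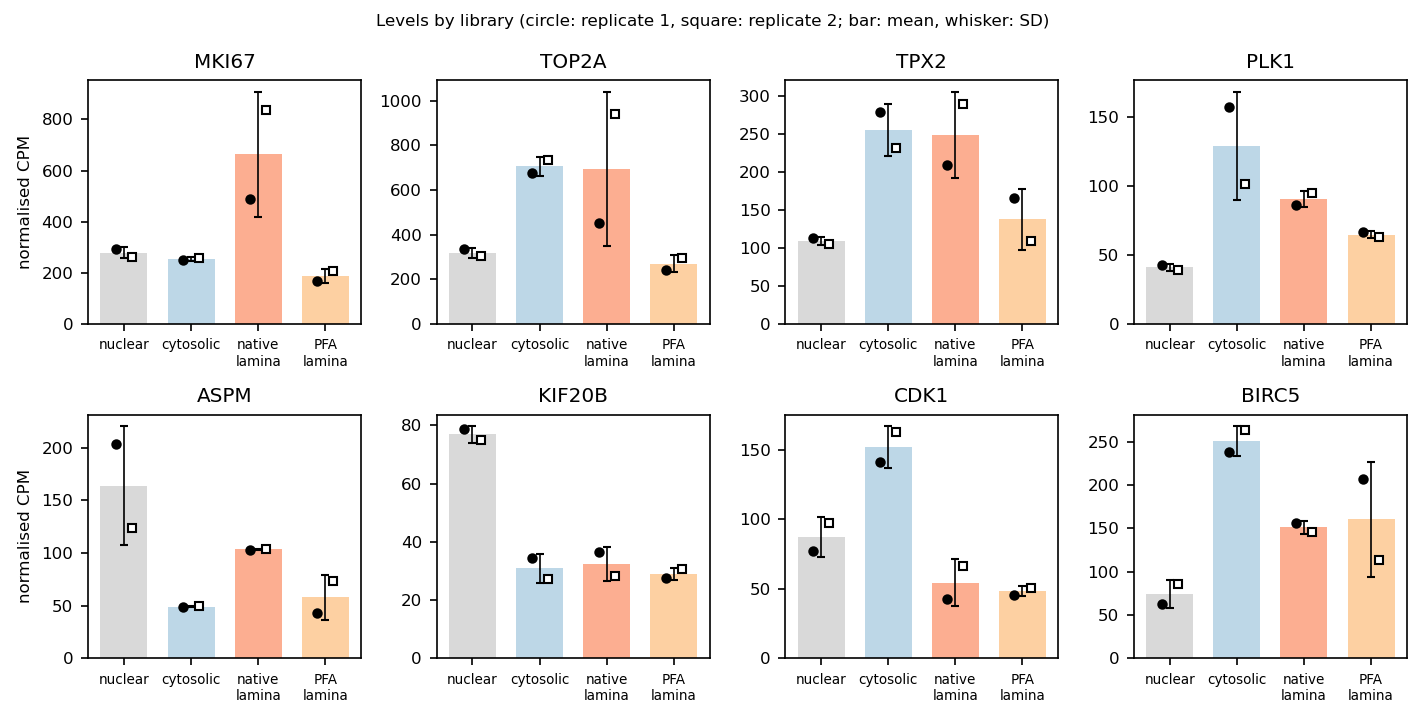
Normalised CPM of 8 genes in each library (circle for replicate 1, square for replicate 2), with the mean (bar) and SD (whisker) of the 2 libraries of a group, on axes from 0. MKI67 is highest in both native lamina libraries, TOP2A has widely spaced native replicates, ASPM and KIF20B are highest in the nuclear fraction, and CDK1 is lowest at both lamina preparations.

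At the PFA lamina the members were mostly below the cytosolic fraction. Against it 37 of 40 fold changes were negative (7556 of 16504 over all genes), with a median of -0.69 beside 0.08 for all genes. For 33 members both PFA libraries lay below both cytosolic ones (23% of all genes), while 1 member, SMC4, lay above (25.2%). The test called 1 member lower (0.145% of all genes) and 0 higher (0.527%). An unadjusted edgeR p under 0.05 was found in 20 members. No share of all genes is given for that count, so it is not a result about the members. The 1 called was CDK1, with 45.8 and 50.8 CPM against 141.1 and 162.4, and a log2 change of -1.65 (SE 0.30, edgeR adjusted p 0.0407). This call was lost with total counts and without nuclear replicate 1 or 2, cytosolic replicate 1 or 2 or PFA replicate 2, with edgeR adjusted p up to 0.266. UBE2C followed with -1.66 (SE 0.35, edgeR adjusted p 0.0506). The Wald test of DESeq2 called 12 members lower and 0 higher, a count given without the share of all genes called by that test.

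Against the nuclear fraction 5 members were lower at the PFA lamina (7.81% of all genes) and 2 higher (9.63%), with a median of -0.20 beside -0.04 for all genes. Without PFA replicate 2 the median was -0.04 beside -0.09, and without nuclear replicate 2 it was -0.08 beside -0.02, so the shift from the median of all genes was lost or reduced without either library. The PFA libraries lay wholly below the nuclear ones for 18 members (32.2%) and wholly above for 10 (30%). The lower ones were CENPE, ASPM, KIF20B, ANLN and KIF14, of which CENPE, ASPM, KIF20B and KIF14 were also called higher in nuclear than in cytosolic RNA. Both comparisons share the nuclear libraries. CENPE had 13.3 and 25.4 CPM, with a log2 change of -1.89 (SE 0.49, edgeR adjusted p 0.0234), and ASPM 42.7 and 73.2 CPM, with -1.51 (SE 0.33, edgeR adjusted p 0.0130). KIF20B had 27.5 and 30.5 CPM, with -1.41 (SE 0.28, edgeR adjusted p 0.00991). ANLN, the contractile ring protein anillin, had -0.96 and KIF14 -0.93.

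The 2 that were higher were CDC20 and BIRC5. CDC20 had 78.0 and 71.7 CPM at the PFA lamina against 33.3 and 34.5 in the nuclear fraction, with a log2 change of 1.14 (SE 0.29, edgeR adjusted p 0.0214). BIRC5 had 207.3 and 113.3 CPM against 62.6 and 86.1, with 1.11 (SE 0.33, edgeR adjusted p 0.0346), and the gap between its PFA replicates was wider than the gap to the nuclear libraries. Each of the 7 calls was lost without at least 2 single libraries. KIF20B was lost without nuclear replicate 1 or 2, ASPM without nuclear replicate 1 or PFA replicate 1, CDC20 and CENPE without any 1 of these 3 libraries, and BIRC5, ANLN and KIF14 without further ones as well.

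For 13 members both PFA libraries lay below all 4 fraction libraries, a pattern of 4.65% of all genes. They were CDK1, AURKB, CENPF, KIF11, KIF20A, KIF23, KIF4A, KIF14, NUSAP1, DLGAP5, MKI67, TOP2A and ECT2, and 0 members had both PFA libraries above all 4 (6.7%). Of the 7 kinesins 5 are in this set. With either PFA library alone the number was 16, and with total counts in place of TMM it fell to 3, MKI67 no longer among them. Native libraries above and PFA libraries below all fraction libraries, as in MKI67, occurred in 0.261% of all genes. Since MKI67 was listed for its high native values, that share is no measure of how unusual it is. Its PFA side, shared by the 13 members, was not compared in the choice. The PFA libraries did enter the shared estimate of the spread behind it. CDK1, AURKB and KIF11 had both native libraries below all 4 fraction libraries too (6.41% of all genes).

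The PFA and the native lamina were compared to see how the preparations differed. Of the 39 members other than MKI67, whose native values chose it, none passed the edgeR test (0% of all genes in either direction). An unadjusted edgeR p under 0.05 was found in 10 of the 39, a count with no share of all genes beside it. Of the same 39 the DESeq2 Wald test called 4 lower, and edgeR without a filter called 3 lower. The shares of all genes called in these settings are not given here. The direction was shared: 34 of 40 fold changes were negative (7607 of 16504 over all genes), with a median of -0.32 beside 0.06 for all genes. For 24 members both PFA libraries lay below both native ones (18.7% of all genes), against 3 above (19.9%). The median was -0.51 without native replicate 1 and -0.52 without PFA replicate 1, and both omissions made the shift larger. The medians without native replicate 2 and without PFA replicate 2 are not given here, so how much of the shift then remains is not shown. Native replicate 2 was above replicate 1 in 31 of the 40 members (median log2 ratio 0.37). The shared direction therefore depends in part on native replicate 2, without which MKI67 had -1.40. MKI67 had the lowest value, -1.83 (SE 0.33). Next came TOP2A with -1.37 (SE 0.36, edgeR adjusted p 0.289), CENPF with -1.37 (SE 0.34, edgeR adjusted p 0.286) and KIF23 with -1.17. All 7 kinesins, all 7 spindle and microtubule proteins and all 6 chromosome structure genes had negative values, while CCNB2, CDC20, MAD2L1, BUB3, CENPA and BIRC5 had values between 0.09 and 0.31.

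The relation to exonic length was also read in the lamina comparisons, where it differed in sign and size. The Spearman correlation over the 40 was 0.755 for the native lamina against the cytosolic fraction (0.662 to 0.738 in single pairings of libraries), where all genes had 0.218. It was -0.571 for the PFA lamina against the nuclear fraction (-0.668 to -0.406, all genes -0.059) and -0.606 for the PFA against the native lamina (-0.622 to -0.337, all genes -0.335). For the native lamina against the nuclear fraction it was -0.145 (-0.319 to -0.006, all genes 0.175). For the PFA lamina against the cytosolic fraction it was 0.447 (0.235 to 0.470, all genes 0.045). In the first 4 of these comparisons the all-gene values among genes with at least 10 counts in every library were 0.468, -0.295, -0.504 and 0.053. All 4 were nearer to those of the members, the last still with the opposite sign. The PFA against cytosolic values for this filter and for the length offset are not given. With the length offset the members' values were 0.518, -0.427, -0.141 and -0.259, so that among these 4 the PFA against native relation changed most. The summed level of the 10 short members relative to the 11 long ones was 0.438 and 0.474 in the cytosolic, 0.400 and 0.467 in the PFA, 0.247 and 0.368 in the nuclear and 0.221 and 0.272 in the native lamina libraries. The cytosolic and PFA libraries held relatively more of the short messages, and the 2 pairs did not overlap with the nuclear and native pairs. The long sum includes MKI67, which was listed for its native values. It gave 489.1 of 1975 CPM in native replicate 1 and 836.8 of 3028 in replicate 2. The native ratios, and the correlations that involve native libraries, are therefore lowered or raised in part by the choice of this gene and are a description.

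**Figure D4:**
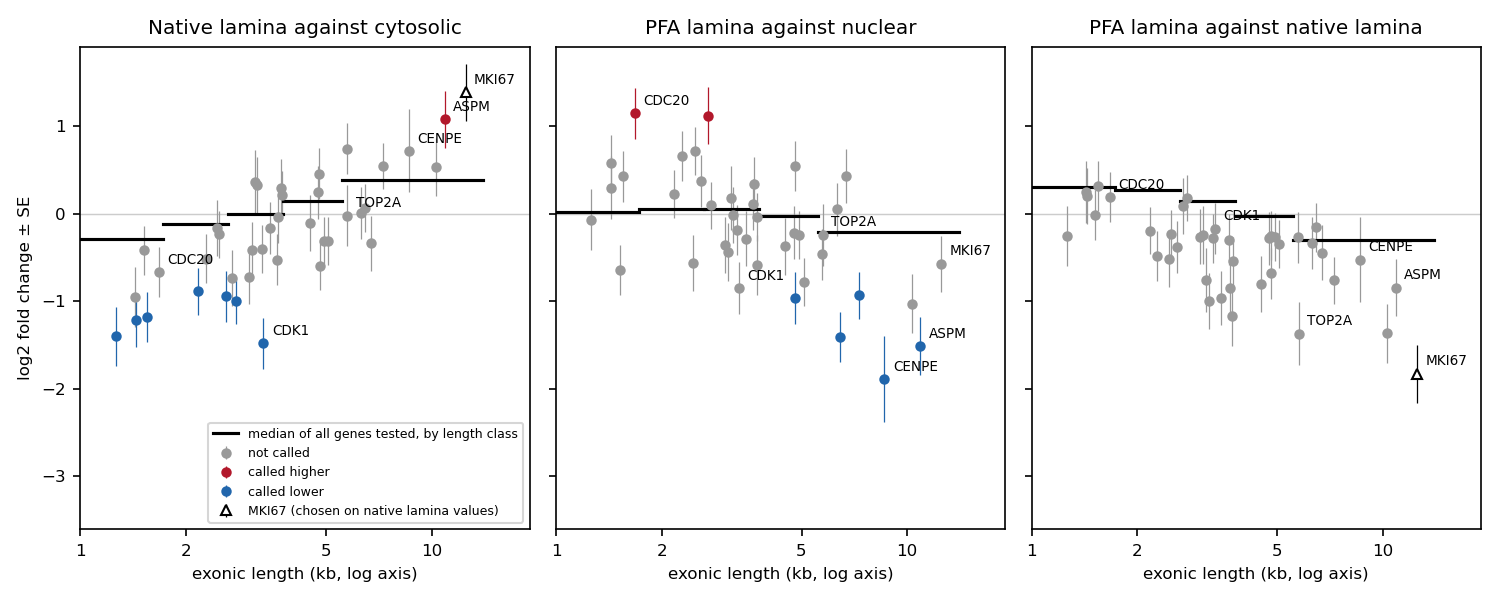
The log2 fold change with its SE of the 40 genes against exonic length in kb (log axis) in 3 lamina comparisons. Red points were called higher, blue lower and grey neither, the open triangle is MKI67 where native values enter, and black lines are medians of all genes tested in 5 length classes. Points climb with length for the native lamina against the cytosolic fraction and descend with length in both PFA panels, and MKI67 lies at the right edge, at 1.38, -0.57 and -1.83.

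A further 79 genes of mitosis that are not members were read in the same fits. Between the fractions 18 were lower and 4 higher in the nucleus, which is 22.8% and 5.06% of them beside 21.2% and 26.1% of all genes, with a median log2 change of -0.31. The partner of BIRC5 and AURKB in the passenger complex, INCENP, was the 1 gene higher in native lamina than in nuclear RNA (1.27% of the list beside 3.87% of all genes), with 1.37 (SE 0.31, edgeR adjusted p 0.0258). CDC25C and CENPK were lower (2.53% beside 3.44%), with -1.44 and -1.45. Against the cytosolic fraction KNTC1 was higher at the native lamina (1.27% beside 6.99%), with 1.35, and PTTG1 (securin), PBK, CKS2, SKA2 and UBE2S were lower (6.33% beside 6.77%). Against the nuclear fraction 5 were higher at the PFA lamina (6.33% beside 9.63%), among them FOXM1 and MYBL2, transcription factors of the late cell cycle, with 1.13 and 1.03, and 4 were lower (5.06% beside 7.81%), among them CENPK with -2.46. The median of the PFA against the native lamina was 0.03 for these genes, against -0.32 for the members, a difference that was not tested. A list of 52 DNA replication genes had 25 lower (48.1%) and 5 higher (9.62%) between the fractions, and 14 higher (26.9%) and 1 lower (1.92%) at the PFA lamina than in the nuclear fraction, to be read beside the same shares of all genes.

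The counting ignored strand and gave reads in shared exons to each gene, so members whose exons overlap another gene are uncertain to that extent. NCAPG, a condensin subunit, shares 34.4% of its exonic length with LCORL, and PRC1 shares 10.6% with PRC1-AS1 and HMMR 9.70% with HMMR-AS1. For KIF23, BUB1B, SMC4, PLK1, KIF20A and ANLN the overlap was 1.63 to 6.21%. MKI67 and TOP2A had none.

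Lamina-associated domains were available from HCT116, a colorectal carcinoma line, as 1 list each for G1, S and G2, so they describe the position of the genes in other cells. None of the 40 genes overlapped a domain in G1 or S, where 7.94% and 6.81% of genes did. In G2 the 1 member inside a domain was MKI67 (9.51% of genes), in an interval of 4500 kb on chromosome 10 (hg19, 129100001 to 133600000). In G1 and in S the nearest domain began 175.5 kb from MKI67. Within 100 kb of a domain lay AURKA and HMMR in all 3 stages, with SMC2 added in G1 and S. With MKI67 counted in G2, that is 3 of the 40 members in each stage. Of all genes 10.1% in G1, 8.26% in S and 12% in G2 lay as near.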

How the data were processed

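Read counts per gene symbol in 8 HEK293FT libraries were deposited by the authors, who made them with featureCounts 1.5.2 on hg19 and the RefFlat annotation, without strand and with reads in several genes counted for each, per the file headers. TopHat2 2.1.1 and Bowtie2 2.3.2 are named in the submitters' processing notes. In the first cytosolic library the header's output file is named for the first nuclear one. It was kept as labelled, since Pearson's r of log2 CPM was 0.968 with the other cytosolic and 0.790 with the first nuclear library. Exonic lengths, deposited in the same files, and domain intervals, deposited without scores, were used as given.

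Genes passing filterByExpr (16504 of 27630) were fitted in R 4.3.3 by edgeR 4.0.16 using TMM factors, the quasi-likelihood test and 1 coefficient per group, over all 8 libraries. The 6 contrasts were each adjusted by Benjamini-Hochberg over all genes tested. SE is the size of the log2 fold change divided by the root of F. Levels are given per library, and a count of 3 equals 0.351 to 1.29 CPM. The test was tested on simulated data.

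Named genes were MKI67, each member called in a direction where these were at most 6 and otherwise the 3 with the largest change, the 3 longest and 3 shortest, those sharing exons, and the extremes of each role; others were chosen after their values were seen. The members and lists were chosen with earlier results of these data known. Alternatives were DESeq2 size factors, total counts, upper-quartile factors, a minimum of 10 counts in each library, dropping the filter, the Wald test of DESeq2 1.42.0, only the 4 libraries compared, a replicate block, a length offset (lowess span 0.3, alone and with the block), and leaving out each library. K562 samples, whose title and material labels disagree, and H3K9me3 samples were not used here.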

Additional observations from a re-analysis of the deposited data

Results flagged for a closer look

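MKI67 was picked out because its 2 lamina preparations lay on opposite sides of the fractions: both native libraries (489.1 and 836.8 normalised CPM) lay above all 4 fraction libraries and both PFA libraries (167.8 and 206.0) below them. On the PFA side the log2 fold changes against the nuclear (-0.57, edgeR adjusted p 0.219) and the cytosolic fraction (-0.44, edgeR adjusted p 0.433) did not pass the test. The PFA against native log2 fold change was -1.83, given as a description and with no call drawn from it, since MKI67 was listed for its native values. With total counts the PFA libraries no longer lay below all fraction libraries, and with the length offset the PFA against native value was -1.30 and the PFA against nuclear one -0.15.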

How the results depend on the processing

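Counts of called members are given as higher and lower. Outside the main fit, here and above, the share of all genes called in the same setting is not given beside them. A change in such a count is therefore not a result about the members. The 18 calls lower and 5 higher between the fractions stayed within 1.5 times except that 3 were higher with the length offset, alone or with the replicate block. Native against nuclear (3 and 1) became 11 and 0 with total counts, 9 and 2 without a filter, 10 and 2 with DESeq2, 12 and 2 with only the 4 libraries compared, 0 higher with upper-quartile factors, and 6 higher with the length offset. Native against cytosolic (2 and 7) became 2 lower with total counts and 0 and 2 with the length offset. PFA against nuclear (2 and 5) became 2 lower with total counts, 8 lower with upper-quartile factors, with at least 10 counts and with DESeq2, 0 and 2 with only the 4 libraries compared, and 3 lower with the length offset. PFA against cytosolic (1 lower) became 0 with total counts, 9 without a filter, 3 with at least 10 counts, 12 with DESeq2, 2 with only the 4 libraries compared and 2 with the length offset. PFA against native (0) became 4 lower without a filter and 5 lower with DESeq2, MKI67 being 1 of them in each. The 13 members with PFA libraries below all fraction libraries became 3 with total counts (2.05% of all genes). With either PFA library left out there were 16, under a looser rule whose count could not fall. Within 100 kb of a domain there were 3 of the 40 members in each stage, beside 10.1% (G1), 8.26% (S) and 12% (G2) of genes. The correlations of deviations between same-numbered libraries were -0.067 to 0.321, over 0.1 in 3 of the 6 pairs of groups. They were highest for native with PFA lamina (0.321) and nuclear with cytosolic fraction (0.28). These values do not settle whether the numbers pair the samples. The labels state no pairing, and the main fit used none. With the replicate block 5 were higher in native against nuclear and 5 lower in PFA against cytosolic. With the block and the length offset these were 7 higher (2 lower) and 8 lower, with 0 higher in native against cytosolic. Leaving out 1 library gave 3 to 6 higher and 11 to 19 lower between the fractions, 0 to 12 and 0 to 2 for native against nuclear, 0 to 2 and 0 to 9 for native against cytosolic, 0 to 2 and 0 to 7 for PFA against nuclear, 0 and 0 to 15 for PFA against cytosolic, and 0 and 0 to 2 for PFA against native. Of the 21 lamina calls 0 were kept in all 8 of these fits, where a group left with 1 library is assumed to vary like the others. The cause of the losses was not tested. All 21 kept their direction and at least 50% of their log2 fold change. That outcome was nearly fixed in advance and lends the calls no support, since they were chosen in these same libraries, most of which each fit keeps. The 21 also include the native calls of MKI67, which was listed for them. Total counts moved the all-gene median of native against nuclear from -0.07 to 0.22 and upper-quartile factors that of the fractions from 0.13 to 0.40, and the members' median relative to it was 0.43 and 0.41, and -0.73 and -0.73. The filter moved it more: without one it was 0.62 and -1.14, and with at least 10 counts in every library 0.26 and -0.41. PFA replicate 2 had the fewest counts, and 3 counts there equal 1.29 CPM.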
